A study of Mus musculus with 17 samples.

Results

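The testis-specific metabolic isozymes described here are 9 genes, *Ldhc*, *Pgk2*, *Pdha2*, *Cyct*, *Gapdhs*, *Gykl1*, *Gk2*, *Aldoart1* and *Fbp1*, of the 23282 genes in the deposited table. They were chosen by name, as the germ cell forms of enzymes of glycolysis, gluconeogenesis and respiration, and all 9 were listed. FACS was used to sort 3 germ cell stages from C57BL/6 mice (C57BL/6J in the methods) of 2 genotypes for RNA-seq: spermatogonia (SPG), spermatocytes at pre-leptotene (PreL) and spermatocytes at leptotene and zygotene together (LZ). WT animals were compared with *Nat10*-SKO animals (labelled Stra8-cre_Nat10_KO, and in the methods *Nat10* fl/- with a *Stra8*-GFP Cre knock-in), which carry 1 floxed and 1 null allele of the RNA acetyltransferase gene *Nat10* and in which Cre, driven by *Stra8*, excises exons 4 and 5 of the floxed allele in germ cells from the spermatogonial stage. Cre and the null allele are thus found in the SKO groups and not in WT, and the age of the sorted animals is not given in the sources used here. The 17 libraries comprised 3 WT and 3 SKO of SPG, 3 WT and 3 SKO of PreL, and 2 WT and 3 SKO of LZ. The labels do not say that libraries of a group came from separate animals, so p-values measure the spread between these samples, which may be technical.

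Sperm and spermatocytes make energy with enzymes that differ from those of other cells. During spermatogenesis many widely expressed metabolic enzymes are joined or replaced by forms encoded by separate genes that are active mainly in germ cells, several of which arose by retroposition and have no introns. The X-linked enzyme genes *Pgk1*, *Pdha1* and *Gk* have such autosomal partners, and the X chromosome is silenced in pachytene spermatocytes. Aldolase, glyceraldehyde-3-phosphate dehydrogenase, phosphoglycerate kinase and lactate dehydrogenase act along glycolysis, glycerol kinase brings glycerol into the same route, and fructose-1,6-bisphosphatase runs an aldolase-adjacent step in the direction of glucose. The pyruvate dehydrogenase complex converts pyruvate to acetyl-CoA inside mitochondria, where cytochrome c carries electrons between respiratory complexes.

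The 9 genes lay on 8 chromosomes, with 0 on the X (GENCODE annotation of GRCm38). The longest coding transcript had 1 exon for 5 of them: *Pgk2* (chr17:40207015-40208640), *Pdha2* (chr3:141210004-141212355), *Gk2* (chr5:97455142-97457021), *Aldoart1* (chr4:72850583-72852634) and *Gykl1*. The other 4, with several exons, were *Ldhc* (chr7:46861203-46878142), *Gapdhs* (chr7:30729775-30743681), *Cyct* (chr2:76353942-76360450) and *Fbp1* (chr13:62864753-62888282). *Gapdhs* shares exon sequence with *Tmem147os* on the opposite strand, and the library kit does not mark strand, so reads of that pair cannot be told apart.

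Whether reads of a germ cell form can be told from those of its counterpart depends on how far their sequences differ. Over aligned coding bases, identity was 74.1% between *Ldhc* and *Ldha*, 79.3% between *Pgk2* and *Pgk1*, 76.3% between *Pdha2* and *Pdha1*, 78.0% between *Cyct* and *Cycs*, 72.0% between *Gapdhs* and *Gapdh*, 81.2% between *Gk2* and *Gk*, and 82.5% between *Gykl1* and *Gk*. *Fbp1* and *Fbp2* were 71.6% identical, and *Aldoart1* was closest to its counterpart, at 93.9% against *Aldoa*. The longest identical run was 86 bases, between *Aldoart1* and *Aldoa*, and 0 windows of 100 bases from any of the 9 transcripts occurred in a transcript of another gene. The most similar 90 coding bases of *Ldhc* and *Ldha* differed at 14 positions, and those of *Pgk2* and *Pgk1* at 13. They are shown because even there the pairs are told apart, with differing bases in capitals:
Ldhc: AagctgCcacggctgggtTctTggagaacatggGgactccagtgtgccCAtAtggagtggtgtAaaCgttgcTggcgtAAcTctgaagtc
Ldha: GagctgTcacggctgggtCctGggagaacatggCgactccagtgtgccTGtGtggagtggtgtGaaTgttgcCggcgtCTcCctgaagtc
Pgk2: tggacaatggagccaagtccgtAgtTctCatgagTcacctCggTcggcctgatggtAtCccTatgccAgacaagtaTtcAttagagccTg
Pgk1: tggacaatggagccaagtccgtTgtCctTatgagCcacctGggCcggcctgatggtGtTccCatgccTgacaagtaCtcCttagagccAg

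RefSeq promoter sequences (GRCm38.p6) were found for 7 of the 9 genes. The 250 bases before the start were searched on both strands for the MYB motif TAACNG, for the full cAMP response element (CRE) TGACGTCA, for the CRE half-site TGACG contained in it, for the TATA box TATAAA, for the GC box GGGCGG and for the CCAAT box. Of 32851 promoters, 19.8% held the MYB motif, 1.55% the full CRE, 17.8% the half-site, 12.4% the TATA box, 32.7% the GC box and 33.8% the CCAAT box. Among the 7, the MYB motif and the CRE half-site were each found in 1, *Ldhc*, the full CRE in 0, the TATA box in 1, *Pdha2*, the GC box in 2, *Ldhc* and *Fbp1*, and the CCAAT box in 3, *Pgk2*, *Cyct* and *Fbp1*. *Gapdhs* and *Gk2* held none of these letters in the window. Of the 250 bases, 60 for *Ldhc*, with both of its MYB motifs, and 31 for *Pgk2* lie inside the gene's GENCODE transcript, so neither is printed. A match is a description of the sequence and not of a bound site. The stretches below are from *Fbp1* (chr13:62888283-62888532, minus strand) and *Gk2* (chr5:97457024-97457273, minus strand), whose reads nearly vanished in SKO LZ, and from *Pdha2* (chr3:141212356-141212605, minus strand) and *Cyct* (chr2:76360454-76360703, minus strand), whose levels were 13.9 RPM or more in every SKO library. Matches are in capitals:
Fbp1: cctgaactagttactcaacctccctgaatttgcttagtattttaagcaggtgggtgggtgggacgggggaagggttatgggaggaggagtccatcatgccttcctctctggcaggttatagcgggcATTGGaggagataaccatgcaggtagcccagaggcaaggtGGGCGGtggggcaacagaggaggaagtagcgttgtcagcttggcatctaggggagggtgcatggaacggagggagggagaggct
Gk2: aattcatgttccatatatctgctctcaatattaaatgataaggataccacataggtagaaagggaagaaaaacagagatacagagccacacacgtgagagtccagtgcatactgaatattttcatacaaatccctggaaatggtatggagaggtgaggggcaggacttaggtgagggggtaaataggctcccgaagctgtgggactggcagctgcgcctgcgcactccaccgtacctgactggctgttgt
Pdha2: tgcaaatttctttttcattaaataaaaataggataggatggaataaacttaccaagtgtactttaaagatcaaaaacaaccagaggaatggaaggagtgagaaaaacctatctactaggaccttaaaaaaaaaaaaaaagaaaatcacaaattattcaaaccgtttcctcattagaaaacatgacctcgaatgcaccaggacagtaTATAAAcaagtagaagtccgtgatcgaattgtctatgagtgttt
Cyct: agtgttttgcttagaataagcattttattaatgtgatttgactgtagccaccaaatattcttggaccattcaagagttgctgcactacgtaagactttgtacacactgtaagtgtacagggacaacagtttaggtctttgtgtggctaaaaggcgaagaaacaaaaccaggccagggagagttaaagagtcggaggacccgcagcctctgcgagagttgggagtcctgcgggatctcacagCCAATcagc

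Divided by 1 calibration factor per library, from 1 to 10.4, all deposited values (100%) came out as whole reads within a tolerance of 0.05. They summed to between 5812380 and 13820953 reads per library, with the SKO LZ libraries the shallowest. Levels are given as RPM, a gene's reads per 1000000 reads of the library. Intervals and floors below cover counting error only, since PCR copies are not independent molecules. *Nat10* stood at 30.2 to 37.2 RPM in WT SPG and 14.7 to 22.6 in SKO SPG, at 23.1 to 36.4 and 10.1 to 15 in PreL, and at 28.1 to 28.6 and 6.83 to 8.81 in LZ, lower in every SKO library than in every WT library of its stage. These counts include exons outside the excised part. The makeup of the sorts differed between genotypes by marker genes. Over all genes tested, 2.06%, 5.83% and 25.8% were called lower in SKO SPG, PreL and LZ, and 3.95%, 5.32% and 13.4% higher. Of 12 late spermatocyte markers, 11 were called lower in SKO LZ, and their summed level was 2310 to 3893 RPM in WT LZ and 219 to 233 in SKO LZ. In PreL, 7 of 11 tested were called lower, with sums of 370 to 701 RPM in WT and 237 to 267 in SKO. In SPG, 2 of 11 were called lower, with overlapping sums of 272 to 305 and 195 to 275 RPM. All 12 spermatid markers were called lower in SKO LZ, with sums of 673 to 1092 RPM in WT LZ and 7.36 to 9.81 in SKO LZ. Spermatid sums were already 117 to 348 RPM in WT SPG and 617 to 1029 in WT PreL, against 4.45 to 11.2 and 10.7 to 15.3 in SKO. Of these 12, 9 were called lower in SKO SPG and 8 in SKO PreL. Early meiotic markers summed to 5457 to 5988 RPM in WT LZ and 3529 to 5278 in SKO LZ, with 2 of 12 called lower. At the earlier stages their sums were higher in every SKO library, at 4235 to 4673 RPM against 2786 to 3303 in SPG (0 of 12 called) and 6507 to 9200 against 4426 to 5419 in PreL (*Sycp3* and *Meiob* called higher). Spermatogonial marker sums were also higher in every SKO library of SPG, at 1114 to 1194 RPM against 871 to 913 (1 of 10 called higher). In PreL they were 720 to 846 RPM against 662 to 690 (2 of 10 called higher), and in LZ the genotypes overlapped. Leydig cell markers summed to 5.61 to 57.6 RPM over the WT libraries and 40.8 to 462 over the SKO libraries. In SPG, peritubular myoid cell markers summed to 0.777 to 4.32 RPM in WT and 33.7 to 64.5 in SKO (2 of 3 tested called higher), and macrophage markers to 3.97 to 12.2 and 41.3 to 102 RPM (3 of 5). In bulk samples, fewer cells of a type and less RNA per cell cannot be told apart, and the part of these markers in the results below was not tested.

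Together the 9 isozymes took 0.334% and 0.616% of all reads in the WT LZ libraries and from 0.00772% to 0.00896% in the SKO LZ libraries. In WT SPG and WT PreL the share ran from 0.0140% to 0.0254% and from 0.0302% to 0.104%, and in SKO SPG and SKO PreL from 0.00561% to 0.0190% and from 0.00528% to 0.00690%. The plot of summed levels shows the isozymes next to the stage markers. *Ldhc* alone gave 64.0% and 64.4% of the isozyme reads of WT LZ and was the gene ranked 10 and 5 by reads in those libraries. Per kilobase of transcript, mean levels in WT LZ ran from *Ldhc* at 2226 RPM per kb, through *Fbp1* at 420, *Cyct* at 265, *Gk2* at 182, *Pdha2* at 97.8, *Gykl1* at 91.1, *Pgk2* at 75.8 and *Gapdhs* at 21.9, to *Aldoart1* at 2.42. In SKO LZ the order was led by *Cyct* at 71.9 RPM per kb and *Pdha2* at 13.2, followed by *Ldhc* at 4.11, and the other 6 lay between 0 and 0.238.

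**Figure D1:**
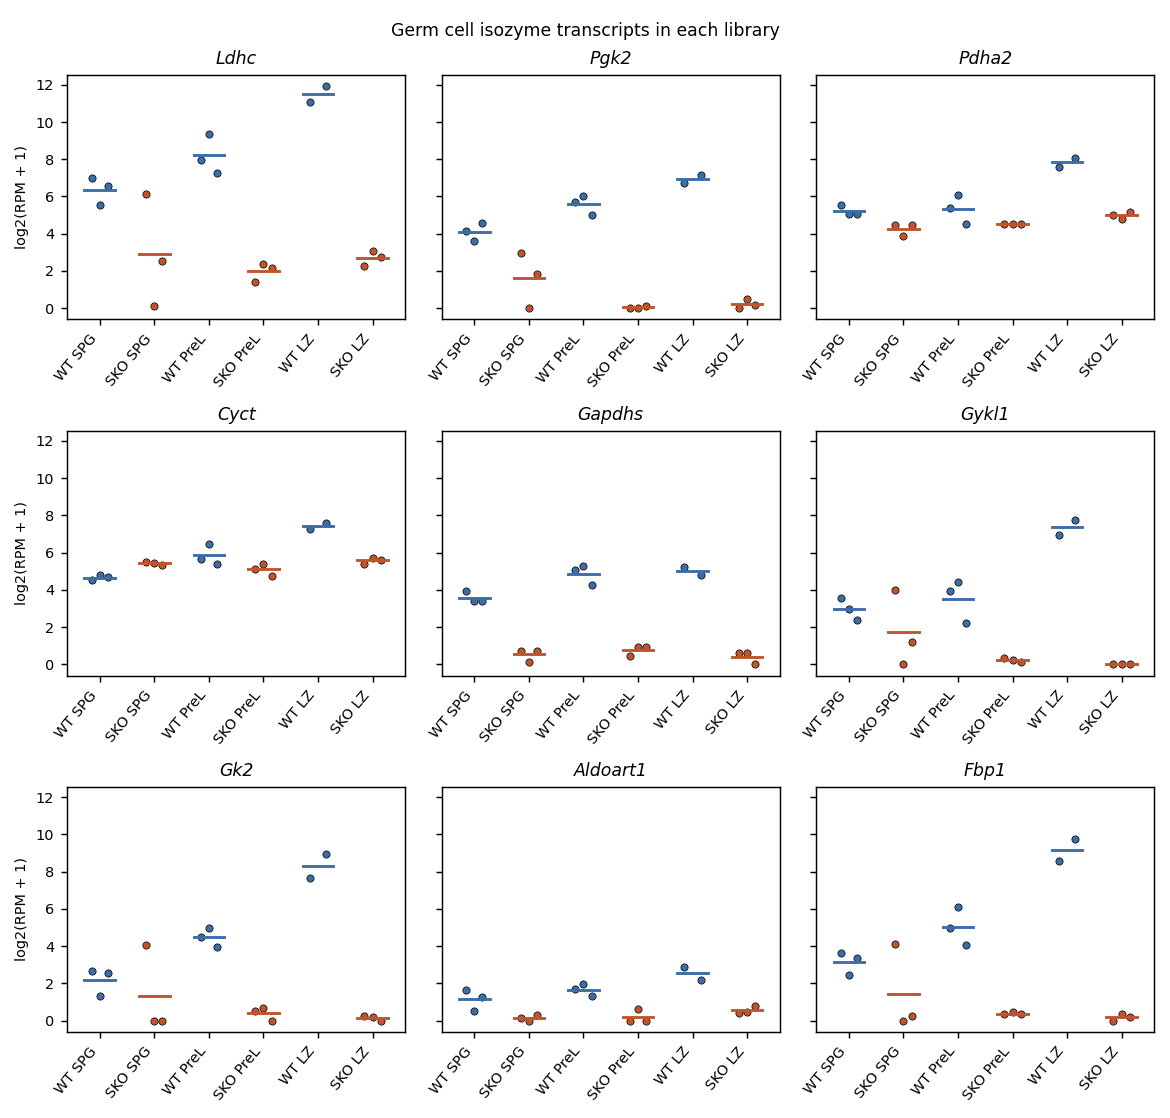
Level of each isozyme as log2(RPM + 1) in each library (point), by group on the x axis, with the group mean as a line and WT in blue and SKO in red. The WT LZ points of *Ldhc*, *Pgk2*, *Gykl1*, *Gk2* and *Fbp1* stand far above SKO LZ points at or near 0, except *Ldhc* at 3.79 to 7.49 RPM, while *Pdha2* and *Cyct* stay at 13.9 RPM or more in every SKO library.

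**Figure D2:**
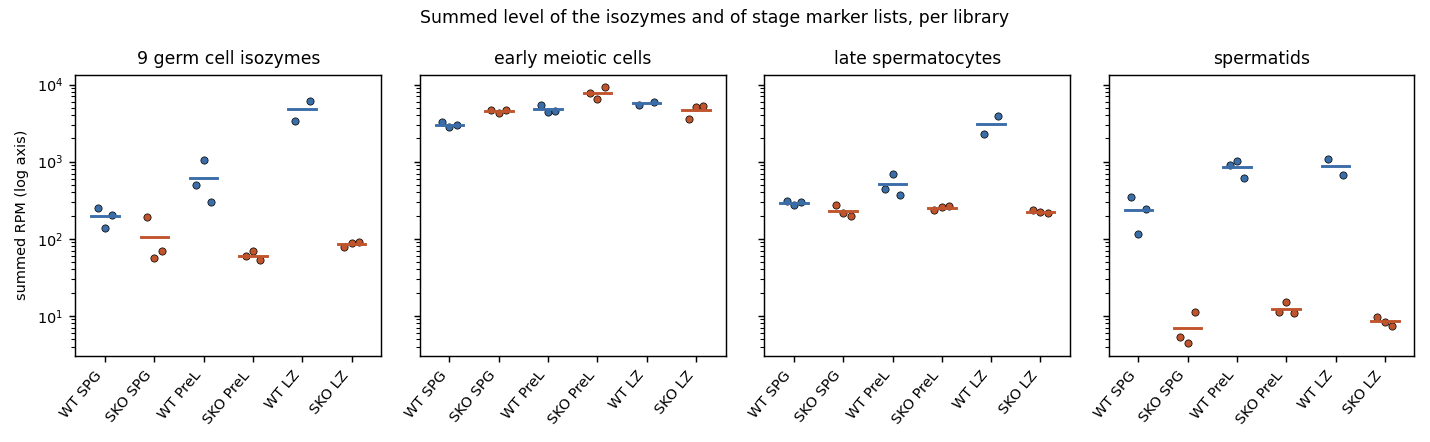
Summed RPM on a log axis for the 9 isozymes and for marker lists of early meiotic cells, late spermatocytes and spermatids, per library (points) and group mean (line). The isozyme sum is 3338 to 6157 RPM in WT LZ and 77.2 to 89.6 RPM in SKO LZ, and the late spermatocyte and spermatid sums are also lower in SKO LZ.

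In WT, most isozyme transcripts were higher at each later stage, and each of the 9 had its highest group mean in WT LZ. From SPG to PreL, 6 of the 9 were called higher (*Ldhc*, *Pgk2*, *Cyct*, *Gapdhs*, *Gk2* and *Fbp1*), where 2.54% of the genes tested were called higher, and 0 lower (1.21%). To be called, a gene had to differ by over 1 on the log2 scale with a p-value, adjusted by Benjamini-Hochberg in limma, below 0.05. Fold changes are on the log2(rescaled value + 10) scale, which understates the change of low genes. The increases ran from 1.23 ± 0.26 (SE) for *Cyct* to 2.42 ± 0.43 for *Gk2* on the log2 scale, and the median of the 9 was 1.34 against 0.01 for all genes tested. These calls were fragile: without WT PreL replicate 2, which had the highest *Ldhc* of its group, 0 were left, and 2 and 3 were left without WT SPG replicates 3 and 2. From PreL to LZ, 7 of the 9 were called higher and 0 lower (18.8% and 7.80% of genes tested), from 1.21 ± 0.34 for *Pgk2* to 4.01 ± 0.57 for *Fbp1*, with a median of 2.38 against 0.13. *Gapdhs* (0.00 ± 0.33) and *Aldoart1* (0.89 ± 0.53) were not called. In the ERCC-calibrated values without rescaling, where the median of all genes rose by 1.86, these 2 were called as well, at 1.81 and 2.51. Without WT LZ replicate 3, the higher of the WT LZ pair for *Ldhc*, 2 of the 7 calls were left, *Gk2* and *Fbp1*. Late spermatocyte markers moved in the same direction, with 11 of 12 called higher in WT LZ than in WT PreL, and so did 7 of 7 tested Sertoli cell markers, and the part of either in these results was not tested.

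In SKO few isozymes were called between stages. From SPG to PreL, 0 of 7 tested isozymes were called by limma or edgeR and 2 by DESeq2 (*Pgk2* and *Gykl1*, lower), and 1, *Pgk2*, had an unadjusted p-value under 0.05, where 0.955% of genes were called lower and 1.63% higher. From PreL to LZ, *Ldhc*, *Pdha2* and *Cyct* passed the filter on low values and the other 6 did not. *Ldhc* was called higher (1.22 ± 0.38, adjusted p = 0.0340, limma), 1 of 3 higher and 0 lower where 10.6% and 6.93% of genes were, at a level of 3.79 to 7.49 RPM in SKO LZ. The call was lost without SKO PreL replicate 1 (0.87), SKO LZ replicate 2 (1.05) or SKO LZ replicate 3 (1.20). *Pdha2* (0.90 ± 0.18, adjusted p = 0.00444) and *Cyct* (0.91 ± 0.13, adjusted p = 0.00105) passed the p-value threshold in limma and not the fold threshold.

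Between the genotypes, fewer isozymes were called in SPG than in later stages. In SPG, 3 of the 8 tested were called lower in SKO (*Ldhc*, *Pgk2* and *Gapdhs*) and 0 higher, where 2.06% of genes were called lower and 3.95% higher. Rescaled values of 3 of the 8 (*Pgk2*, *Pdha2* and *Gapdhs*) were lower in every SKO than in every WT library, as for 14.4% of genes. Their median log2 fold change was -1.64 against 0.00 for all genes tested. *Aldoart1* did not pass the filter. In PreL, 7 of 9 were called lower and 0 higher (5.83% and 5.32% of genes), with a median of -4.63 against 0.04. Rescaled values did not overlap between genotypes for 9 of 9, lower in SKO, as for 20.0% of genes. In LZ, 9 of 9 were called lower and 0 higher, where 25.8% and 13.4% of genes were, with a median of -8.29 against -0.13. This median is the value of *Pgk2*. Its SKO LZ reads, like those of *Gykl1*, *Gk2* and *Fbp1*, were at the floor of counting, so the median depends on the constant of 10. Groups again did not overlap for 9 of 9, as for 39.8% of genes. The plot of fold changes by stage sets the isozymes beside their counterparts. *Pdha2* and *Cyct* were called in neither SPG nor PreL, and the counterpart *Ldha* was called lower in LZ.

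**Figure D3:**
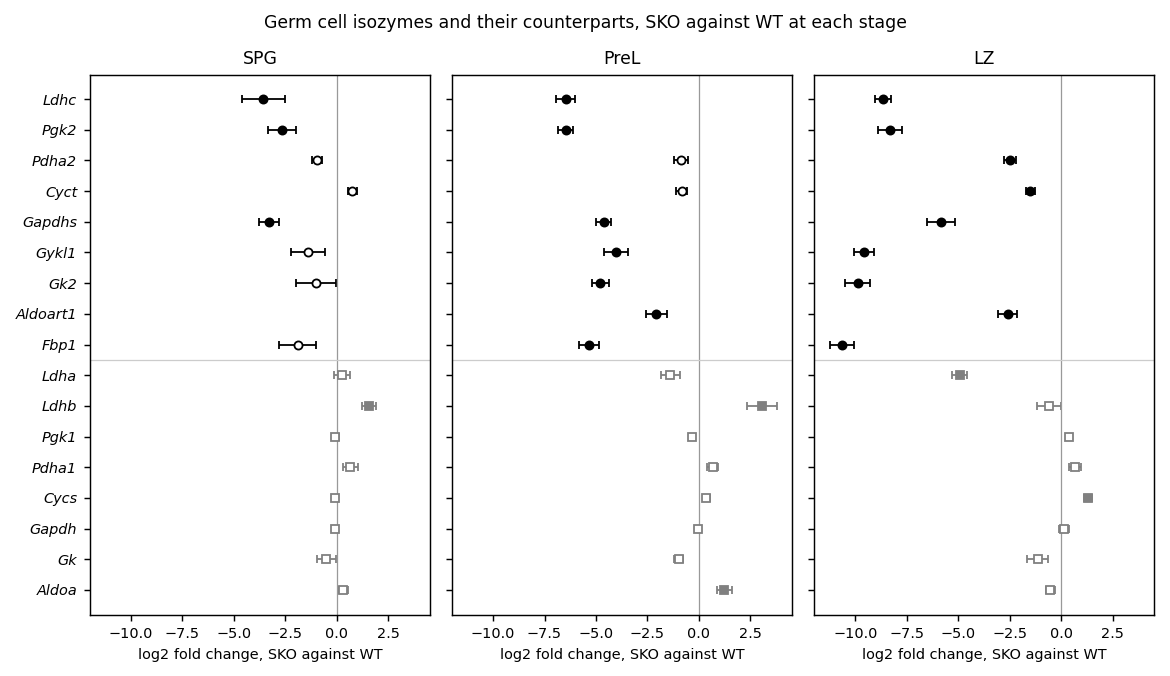
log2 fold change of SKO against WT with its SE (bars) in SPG, PreL and LZ for the 9 isozymes (circles, above the line) and their counterparts (grey squares), on the log2(rescaled value + 10) scale. Filled symbols passed both thresholds: 3, 7 and 9 isozymes, and *Aldoart1* has no symbol in SPG.

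SKO SPG replicate 1 stood apart from the other SKO SPG libraries. It held 69.3 RPM of *Ldhc*, 15.4 of *Gk2*, 14.7 of *Gykl1* and 16.3 of *Fbp1*, against at most 4.78, 0, 1.34 and 0.168 RPM in SKO SPG replicates 3 and 4. Its *Gk2*, *Gykl1* and *Fbp1* levels were above every WT SPG library. Its *Gapdhs* (0.647 RPM), its spermatid marker sum (5.36 RPM) and its *Nat10* level (14.7 RPM) lay in the range of the other SKO SPG libraries or below it, and its late spermatocyte sum was 275 RPM against 195 and 218. Without it, 7 isozymes were called lower in SKO SPG, where 2.17% of genes were, with *Gykl1* at -2.61, *Gk2* at -2.50, *Fbp1* at -3.37 and *Pdha2* at -1.07 added, and *Ldhc* went from -3.57 to -5.26. Its Leydig cell markers summed to 226 RPM against 108 and 63.2. With it, the *Ldhc* call was lost when any library but SKO SPG replicate 1 was left out, 1 call was left (*Gapdhs*) without WT SPG replicate 1 or 3, and the *Pgk2* call was also lost without SKO SPG replicate 4 (-2.80). Without SKO SPG replicate 3, *Ldhc* stood at -2.09 and *Pgk2* at -1.77. edgeR and DESeq2 each called 1, *Gapdhs*.

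*Aldoart1* encodes a sperm form of aldolase, which splits fructose-1,6-bisphosphate. It was the lowest of the 9 in WT, at 2.07, 0.432 and 1.41 RPM in WT SPG, 2.24, 2.84 and 1.49 in WT PreL, and 6.44 and 3.51 in WT LZ. SKO libraries had 0 to 6 reads each, at most 0.722 RPM. No SKO library reached a WT library of its stage. It was lower in SKO PreL (-2.06 ± 0.50, adjusted p = 0.0224, limma), a call lost without WT PreL replicate 1 (-2.14) or SKO PreL replicate 1 (-1.87) and not testable without WT PreL replicate 2, and in SKO LZ (-2.60 ± 0.46, adjusted p = 0.00270).

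*Gapdhs* encodes the glyceraldehyde-3-phosphate dehydrogenase anchored to the sperm tail. WT libraries had 14.2, 9.58 and 9.56 RPM in SPG, 32.1, 38.1 and 18.3 in PreL, and 36.4 and 27.3 in LZ. SKO libraries had 0.647, 0.101 and 0.672 RPM in SPG, 0.356, 0.887 and 0.888 in PreL, and 0.516, 0.526 and 0 in LZ. At each stage the highest SKO library was below the lowest WT library by a wide margin, SKO SPG replicate 1 included. The log2 fold changes were -3.28 ± 0.48 in SPG, -4.63 ± 0.38 in PreL and -5.84 ± 0.68 in LZ, with adjusted p of 0.000979, 0.000115 and 0.000373 in limma. The SPG call held with each of the 6 libraries left out.

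*Pgk2* encodes the germ cell phosphoglycerate kinase, which makes ATP in glycolysis. It rose through the WT stages, at 16.4, 11.4 and 22.8 RPM in SPG, 50.7, 65.3 and 31.1 in PreL, and 103 and 143 in LZ. SKO SPG had 6.94, 0 and 2.60 RPM, SKO PreL 0, 0 and 1 read, and SKO LZ 0, 3 and 1 reads. The SKO libraries from PreL onward were thus at the floor of counting. WT exceeded the pooled SKO level 1655-fold in PreL (95% exact Poisson interval of the SKO count, 297 to 65370) and 627-fold in LZ (245 to 2300). The limma log2 fold changes, -2.66 ± 0.67 in SPG (adjusted p = 0.0208), -6.48 ± 0.36 in PreL (adjusted p = 1.76e-05) and -8.29 ± 0.58 in LZ (adjusted p = 5.59e-05), depend on the constant of 10 where SKO is this low.

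*Ldhc* encodes the testis lactate dehydrogenase, which interconverts pyruvate and lactate. WT SPG had 126, 46.3 and 91.9 RPM, WT PreL 252, 659 and 154, and WT LZ 2135 and 3964. SKO SPG had 69.3, 0.101 and 4.78 RPM, SKO PreL 1.69, 4.17 and 3.46, and SKO LZ 3.79, 7.49 and 5.63. Groups overlapped in SPG, through replicate 1 of SKO, and not in PreL or LZ. In mean RPM, WT exceeded SKO 3.57-fold in SPG, 114-fold in PreL and 541-fold in LZ. In limma the log2 fold changes were -3.57 ± 1.04 (adjusted p = 0.0417), -6.48 ± 0.47 (adjusted p = 8.43e-05) and -8.65 ± 0.38 (adjusted p = 5.17e-05).

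*Gk2* and *Gykl1* encode glycerol kinases, which phosphorylate glycerol, and each is a single-exon relative of X-linked *Gk*. *Gk2* had 5.44, 1.47 and 4.90 RPM in WT SPG, 21.2, 30.9 and 14.6 in WT PreL, and 198 and 488 in WT LZ. Apart from SKO SPG replicate 1, SKO libraries had 0 to 7 *Gk2* reads each, with 1, 1 and 0 in LZ. *Gykl1* had 10.7, 6.99 and 4.16 RPM in WT SPG, 14.1, 20.4 and 3.73 in WT PreL, and 124 and 215 in WT LZ. In SKO it had 14.7, 0 and 1.34 RPM in SPG, 3, 2 and 1 reads in PreL and 0 reads in all 3 LZ libraries. SPG groups overlapped for both genes and neither was called there (*Gk2* -1.01 ± 0.96, *Gykl1* -1.38 ± 0.83). In PreL both were lower in SKO by limma, *Gk2* by -4.78 ± 0.43 (adjusted p = 0.000180) and *Gykl1* by -4.03 ± 0.57 (adjusted p = 0.00222). In LZ, WT exceeded pooled SKO 3490-fold for *Gk2* (95% exact Poisson interval 966 to 28821). Taking 3 reads per library as the floor, *Gykl1* RPM was at least 241-fold lower in SKO than in the lower WT library. Set against the WT mean, the bound was 379-fold.

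*Fbp1* encodes a fructose-1,6-bisphosphatase, a gluconeogenic enzyme also known from liver and kidney, and here it had the second highest level per kilobase of the 9 in WT LZ. WT SPG had 11.4, 4.40 and 9.31 RPM, WT PreL 30.2, 67.1 and 15.5, and WT LZ 387 and 857. SKO SPG had 16.3, 0 and 0.168 RPM, SKO PreL 0.267, 0.355 and 0.266, and SKO LZ 0, 0.263 and 0.144. SPG groups overlapped and *Fbp1* was not called there (-1.90 ± 0.91, adjusted p = 0.207, limma). In PreL it was lower in SKO by -5.36 ± 0.49 (adjusted p = 0.000188, limma) and 127-fold in mean RPM. In LZ, with 3 SKO reads in all, WT exceeded pooled SKO 4216-fold (95% exact Poisson interval 1443 to 20445).

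*Pdha2* and *Cyct* kept more reads than the other 7 in SKO PreL and SKO LZ, where each library held 178 or more of either. *Pdha2* encodes the germ cell E1 alpha subunit of pyruvate dehydrogenase. It had 45.1, 32.8 and 32.0 RPM in WT SPG, 40.1, 66.6 and 21.8 in WT PreL, and 194 and 266 in WT LZ. SKO SPG had 21.6, 13.9 and 20.9 RPM, SKO PreL 22.4, 21.9 and 21.7, and SKO LZ 30.6, 27.2 and 35.5. SKO *Pdha2* thus lay between 13.9 and 35.5 RPM at every stage while WT LZ stood above every other group, and in PreL the RPM of WT replicate 4 lay among the SKO libraries. By limma it was lower in SKO LZ (-2.49 ± 0.28, adjusted p = 0.000324), past the p-value but not the fold threshold in SPG (-0.96 ± 0.25, adjusted p = 0.0248), and past neither in PreL (-0.87 ± 0.33, adjusted p = 0.0966). In the ERCC-calibrated values without rescaling, where the median of all genes shifted by -0.25 in SPG and 0.73 in PreL, the *Pdha2* values were -1.22 and -0.16.

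*Cyct* encodes the testis form of cytochrome c. WT SPG had 22.2, 26.4 and 24.6 RPM, WT PreL 50.3, 88.5 and 41.3, and WT LZ 153 and 193. SKO SPG had 45.0, 42.1 and 39.3 RPM, SKO PreL 34.5, 40.4 and 26.4, and SKO LZ 41.8, 51.9 and 47.5. In SPG every SKO library was above every WT library, as for 15.2% of the genes tested, and in PreL and LZ every SKO library was below every WT library. The SPG difference passed the p-value but not the fold threshold in limma (0.76 ± 0.21, adjusted p = 0.0341), and was 0.49 without rescaling (adjusted p = 0.22) and 0.71 without SKO SPG replicate 1 (adjusted p = 0.1). The summed early meiotic and spermatogonial markers were also higher in every SKO SPG library, and their part in the *Cyct* level was not tested. *Cyct* was not called in PreL (-0.83 ± 0.26, adjusted p = 0.0569, limma), where it was -0.12 without rescaling, and it was lower in SKO LZ (-1.50 ± 0.23, adjusted p = 0.00136). Both PreL values came past the thresholds when WT PreL replicate 4, the lowest WT PreL library for *Pdha2* and *Cyct*, was left out, and 9 isozymes were then called.

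Whether the genotype effect changed between stages was tested with an interaction term over all 17 libraries. From SPG to PreL, 1 of the 9, *Cyct*, had an effect that became more negative (-1.62 ± 0.33, adjusted p = 0.0432, limma) and 0 more positive, where 0.111% and 0.251% of genes did. The effect on *Pgk2* (-3.71 ± 0.95) had an adjusted p of 0.0872. The *Cyct* call was lost without any 1 of 10 libraries, with values from -1.71 to -1.30, and without rescaling (-0.61), where *Pgk2*, *Gk2* and *Fbp1* were called instead. Those 10 were the 6 SPG libraries, WT PreL replicate 2 and the 3 SKO PreL libraries. From PreL to LZ, 4 of the 9 had an effect that became more negative: *Fbp1* (-4.43 ± 1.36), *Gykl1* (-4.36 ± 1.27), *Gk2* (-4.18 ± 1.40) and *Pdha2* (-1.59 ± 0.44), where 23.1% of genes did and 15.1% became more positive. Without WT LZ replicate 3, 0 of these calls were left, and the *Gk2* call was also lost without WT PreL replicate 4 (-3.95). For *Fbp1*, *Gykl1* and *Gk2*, SKO libraries held 0 to 7 reads each in PreL and 0 to 2 in LZ. With SKO this low at both stages, these values rest mainly on the rise within WT and on the constant of 10. For *Ldhc* (-2.07 ± 1.53), *Pgk2* (-0.92 ± 1.01), *Gapdhs* (-0.55 ± 0.68), *Cyct* (-0.64 ± 0.35) and *Aldoart1* (-0.11 ± 0.73) the test did not separate the stages.

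The balance between each germ cell form and its counterparts was measured as the germ cell share of the family's reads per kilobase, a ratio within a library that scaling between libraries cannot alter. Unique reads were counted, and only the germ cell transcripts were searched for sequence shared with other genes. Reads lost by a counterpart through shared sequence would raise the germ cell share, and this was not tested. In LZ, all 8 family shares were lower in every SKO library than in every WT library, and likewise in PreL. In SPG this held for 5 of 8, the cytochrome c share was higher in every SKO library, and the glycerol kinase and fructose-1,6-bisphosphatase shares overlapped. For comparison, rescaled values of single genes were lower in every SKO library for 39.8% of genes in LZ, 20.0% in PreL and 14.4% in SPG. With 3 against 3 or 2 against 3 libraries the smallest p an exact permutation test can give is 0.1, two-sided, and the non-overlapping families had this value, 0.1 after adjustment over 8 families in PreL and LZ and 0.133 in SPG. *Ldhc* made up 71.5% and 85.5% of lactate dehydrogenase in WT LZ and at most 4.47% in SKO LZ. Its share was 70.8% to 85.5% already in the WT SPG libraries, where spermatid markers summed to 117 to 348 RPM. The part of later cells in this share was not tested. A share also moves with the counterparts: in SKO PreL replicates 1, 2 and 3 *Ldhc* took 0.538%, 1.18% and 7.71%, where *Ldhb* had 283, 316 and 31.6 RPM. *Pgk2* rose from 12.8% to 18.2% of phosphoglycerate kinase in WT SPG to 67.2% and 78.4% in WT LZ, and SKO LZ had 0% to 0.792%. Glycerol kinase was 98.8% and 99.3% *Gk2* and *Gykl1* in WT LZ and 0% to 7.37% in SKO LZ. *Gapdhs* took 21.3% and 32.8% of its family in WT LZ against at most 0.735% in SKO LZ, and *Aldoart1* 2.70% and 3.29% against at most 0.792%. *Pdha2* stayed the major form in SKO LZ, at 73.6% to 78.8% of the family against 94.6% and 98.0% in WT LZ. *Cyct* took 39.8% and 55.9% in WT LZ against 11.1% to 12.2% in SKO LZ, values that rest on the long annotated *Cycs* transcript, since without division by length they were 12.2% and 21.0% against 2.56% to 2.84%. The *Fbp1* share in SKO rests on few reads, and 1 SKO SPG library had none of either gene.

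**Figure D4:**
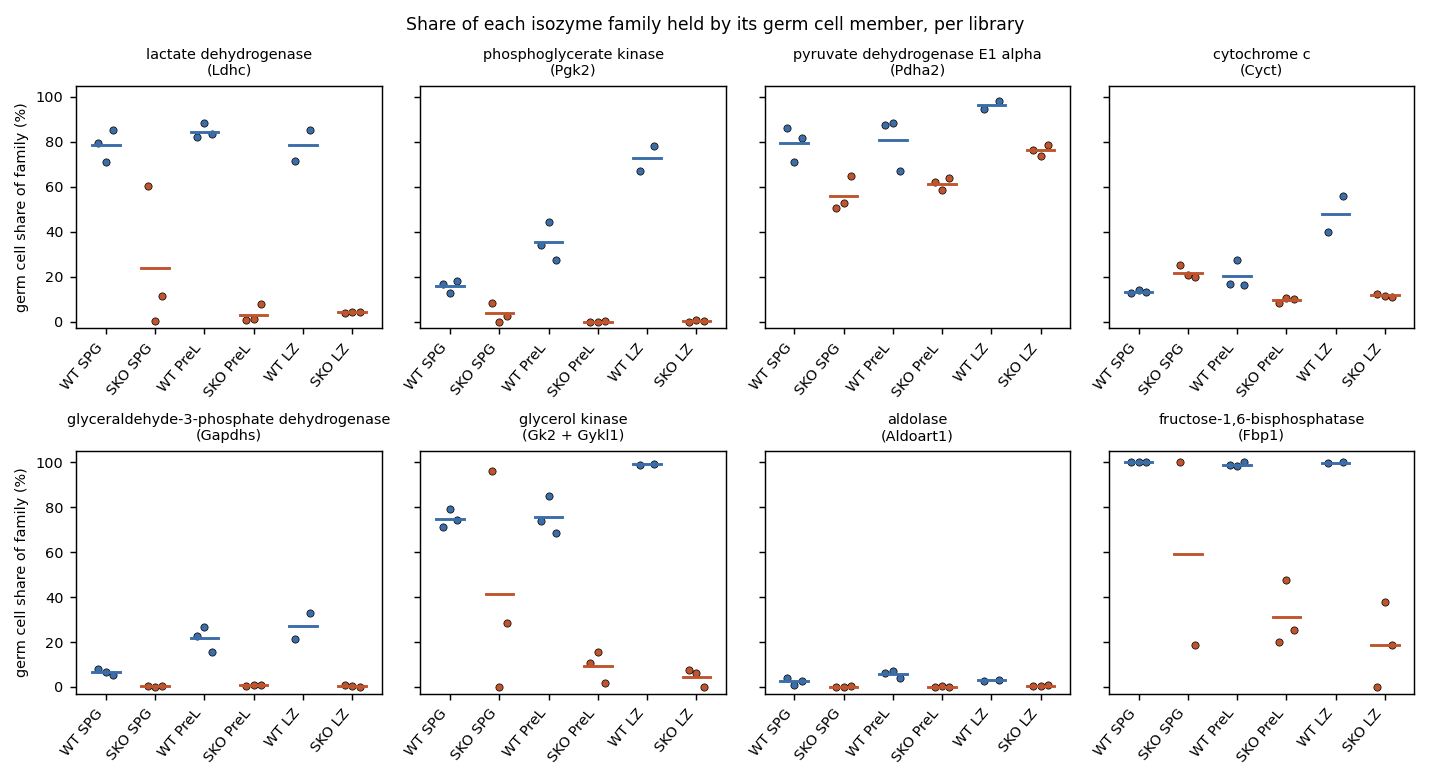
Share of each isozyme family's reads per kilobase held by its germ cell member (y axis, %), per library (points) and group mean (line), for 8 families. The shares of *Ldhc*, *Pgk2* and *Gk2* with *Gykl1* are high in WT LZ and under 8% in SKO LZ, and the *Pdha2* share is 73.6% or more in both LZ groups.

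In LZ, where 25.8% of all genes tested were called lower in SKO and 13.4% higher, 1 of the 9 counterparts tested was called lower (*Ldha*) and 1 higher (*Cycs*). Of the X-linked ones, *Pgk1* was 0.39 ± 0.16 and *Pdha1* 0.68 ± 0.30 higher in SKO LZ on the log2 scale, and *Gk* was 1.14 ± 0.51 lower, none of them called. Within WT and after rescaling, *Pgk1* fell by 1.12 from PreL to LZ (adjusted p = 0.00428, limma) and *Gk* by 1.24 (adjusted p = 0.0261). *Pdha1* stood at -0.23 ± 0.45. The falls are relative to other genes. In the ERCC-calibrated values without rescaling, the median of all genes rose by 1.86, and *Pgk1* and *Gk* were higher in WT LZ than in WT PreL. *Cycs*, the somatic cytochrome c, rose in SKO LZ (1.29 ± 0.20, adjusted p = 0.00146, limma), from 729 and 1109 RPM in WT to 1432, 1879 and 1808 RPM in SKO. *Gapdh* (0.13 ± 0.25) and *Aldoa* (-0.52 ± 0.23) were not called in LZ. In SKO PreL, *Ldhb* (3.07, adjusted p = 0.0191, limma) and *Aldoa* (1.22, adjusted p = 0.0479) were called higher, and in SKO SPG *Ldhb* (1.55, adjusted p = 0.0120).

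*Ldha*, the lactate dehydrogenase of muscle and many other tissues, was lower in SKO LZ as *Ldhc* was (-4.92 ± 0.36, adjusted p = 6.00e-05, limma), from 406 and 778 RPM to 12.6 to 16.7 RPM. *Ldha* (chr7:46841475-46855627) lies beside *Ldhc* on the same strand. Reads of *Ldha* per read of *Ldhc* were 0.141 to 0.196 in the WT PreL and WT LZ libraries and 2.23 to 12.6 in the SKO PreL and SKO LZ libraries. Whether reads running between the neighbours add to the *Ldha* count was not tested. *Ldhb* varied among libraries of a group: 518 RPM in WT LZ replicate 2 and 82.6 in replicate 3, and 283 and 316 RPM in SKO PreL replicates 1 and 2 and 31.6 in replicate 3. The summed Sertoli cell markers were 1257 and 254 RPM in these WT LZ libraries and 682, 888 and 59.3 RPM in these SKO PreL libraries, and *Aldoa* had 165 and 73.2 RPM in the former and 75.2, 92.1 and 25.8 RPM in the latter. The part of these cells in the *Ldhb* and *Aldoa* levels was not tested.

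Other genes of the same routes were counted by list. For comparison, 25.8% of all genes tested were called lower and 13.4% higher in SKO LZ, and 5.83% and 5.32% in SKO PreL. In SKO LZ, 11 of 14 tested further germ cell metabolic genes were called lower and 0 higher, with a median log2 fold change of -3.56 against -0.13 for all genes. This list was not limited to genes active only in germ cells. *Hk1*, called lower, also stands in the glycolysis list and is counted in both. *Ldhal6b*, a germ cell lactate dehydrogenase relative, went from 4995 and 9969 reads in WT LZ to 7, 10 and 0 in SKO LZ, and *Slc2a5*, a fructose transporter, from 1263 and 3077 to 0, 6 and 1. In the list of glycolysis genes, 7 of 17 tested were called lower and 4 higher in SKO LZ, with a median of -0.52. The largest change there was in *Pgam2*, the phosphoglycerate mutase of muscle and testis, with 3939 and 7939 reads in WT LZ and 0, 1 and 2 in SKO LZ. For pyruvate dehydrogenase, with its kinases and pyruvate carriers, 1 of 13 was lower, *Pdk2* (-3.36 ± 0.54), and 1 higher, *Pdk4*. In gluconeogenesis and glycerol metabolism, 2 of 7 tested were lower, *G6pc3* (-3.53 ± 0.30) and *Gpd2* (-2.92 ± 0.34). Around cytochrome c, 1 of 10 was lower, *Uqcrc1* (-2.56 ± 0.22), and 1 higher, *Cycs*. In SKO PreL, 9 of 15 of the further germ cell genes were called lower and 0 higher. Of the 18 glycolysis genes tested there, 2 were called lower and 2 higher.

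Across the 17 libraries, log2 levels of the 7 isozymes other than *Pdha2* and *Cyct* had pairwise Pearson r from 0.769 to 0.989 (median 0.907 over 21 pairs). Against these 7, r was 0.627 to 0.821 for *Pdha2* and 0.335 to 0.635 for *Cyct*. The libraries fall into 6 groups, which all genes share, so the points are not independent and no p is given. The gene most like *Fbp1* was *Pgam2* (r = 0.993), most like *Gk2* was *Spag17* (0.992) with *Fbp1* next (0.989), and most like *Gykl1* was *Prdx6b* (0.987). *Ldhc* was most like *Spata4* (0.984), *Gapdhs* like *Ms4a5* (0.985) with the spermatid marker *Gsg1* next (0.985), *Pgk2* like *Crisp2* (0.979), and *Aldoart1* like *Lrrc18* (0.939). *Pdha2* was most like *Mgll* (0.958) and *Cyct* like *Nol8* (0.937). The other genes with the highest r were *Riiad1* and *Cetn1* for *Ldhc*, *4922502D21Rik* and *Adam3* for *Pgk2*, *Gm128* and *Zkscan17* for *Pdha2*, *Serf1* and *Rgs10* for *Cyct*, *Gstt4* for *Gapdhs*, *Cmtm2a* and *Eid3* for *Gykl1*, *Adam1b* for *Gk2*, *1700027A23Rik* and *Txndc2* for *Aldoart1*, and *Prdx6b* and *Gm3925* for *Fbp1*.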

How the data were processed

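RNA-seq values of 17 sorted germ cell libraries were used. Per the submitters' processing notes and the methods, reads were trimmed, mapped with TopHat2 2.1.1 (mm9 and mm10 are named, mm10 in the methods), and unique reads were counted with HTSeq 0.11.2. The authors deposited these counts as signal values, multiplied by 1 factor per library set from the ERCC spike-in and cell input. Whole reads were recovered for 100% of values, within 0.05 of a whole number. Here each comparison's values were rescaled by median-of-ratios size factors, genes averaging under 10 reads were dropped, and log2(value + 10) was tested with limma 3.58.1 (R 4.3.3) with a trend, adjusted over all genes tested. limma served because the values are calibrated, and edgeR 4.0.16 and DESeq2 1.42.0 on recovered reads were alternatives, as were TMM, no rescaling, a pseudocount of 1 or 50, no filter, a minimum mean of 50 reads, 1 joint fit, a block for the replicate number, the p-value threshold alone, and leaving out each library. Tests were checked on simulated data. The isozymes, counterparts, pathway lists and marker lists were chosen with earlier results of these data known, so their counts are descriptions. Named are the 9 members, their counterparts, *Nat10*, the 2 called genes of each pathway list with the largest change in SKO LZ and a mean of at least 100 reads, and the 3 genes most like each member, chosen by rule, and *Pdk4* and *Hk1*, named after their values were seen. *Gk*, *Meiob*, *Mpc1*, *Mpc2*, *Pkm* and *Adgre1* were listed under older symbols, and *Rhox5* was not analysed here. Of the other marker lists, spermatogonia, peritubular myoid cells, endothelial cells and macrophages had 1, 0, 0 and 0 genes called lower and 2, 0, 0 and 2 called higher in SKO LZ, with the SPG values of spermatogonia, myoid cells and macrophages given above.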

Additional observations from a re-analysis of the deposited data

Results flagged for a closer look

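The genotype effect on 5 isozymes differed between stages by the interaction test over all 17 libraries with limma. That on *Cyct* was -1.62 more negative in PreL than in SPG on the log2 scale (adjusted p = 0.0432). Its SKO libraries were above all 3 WT libraries in SPG and below all 3 in PreL. From PreL to LZ the effect became more negative by -1.59 for *Pdha2* (adjusted p = 0.00849), -4.36 for *Gykl1* (adjusted p = 0.0110), -4.18 for *Gk2* (adjusted p = 0.0239) and -4.43 for *Fbp1* (adjusted p = 0.0151). In this comparison 23.1% of genes became more negative and 15.1% more positive, and all 4 calls were lost without WT LZ replicate 3. Rescaled values of every SKO library were below those of every WT library of its stage for these 4 genes in PreL and LZ. The same held for 20.0% and 39.8% of genes tested, and the *Pdha2* RPM overlapped in PreL. No group had the 4 or more libraries that the search for a single outlying library needs.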

How the results depend on the processing

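Among 38 calls of single isozymes, 361 of 398 values under alternatives that leave out no library kept direction and call, 37 kept the direction and lost the call, and 0 changed direction. With 1 library left out these numbers were 185, 52 and 0 of 237. The count of isozymes called in SPG was 1 with a pseudocount of 1, no filter, edgeR or DESeq2, 5 with no fold threshold, and 1 to 7 with a library left out. It was 6 to 9 in PreL, and in LZ 9 with each library left out. For PreL against SPG in WT it was 0 with no filter, 1 in 1 fit of all libraries, and 0 to 6 with a library left out, and for LZ against PreL in WT 2 to 7. In SKO, PreL against SPG gave 1 without rescaling and 2 with DESeq2, and 0 with any library left out. LZ against PreL in SKO gave 3 without rescaling or fold threshold, 0 with a pseudocount of 50, no filter, a mean of at least 50 reads or 1 fit of all libraries, and 0 to 1 with a library left out. The interaction from SPG to PreL gave 3 without rescaling, 2 with a pseudocount of 50 or DESeq2, 0 with a pseudocount of 1, no filter or edgeR, and 0 to 1 with a library left out. That from PreL to LZ gave 7 without rescaling, 2 with a pseudocount of 1 or DESeq2, 1 with edgeR, and 0 to 5 with a library left out. The number of families with a lower germ cell share in every SKO library was 5 to 7 in SPG and 8 in PreL and LZ with a library left out, and the same as reported with coding lengths or undivided reads. The cause of these shifts was not tested.

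Same-numbered WT and SKO libraries share only a number: each stage has 2 such pairs, whose deviations from the group means correlated from -0.05 to 0.11. With the replicate block 4 isozymes were called in SPG, 8 in PreL and 9 in LZ, 6 for PreL against SPG in WT, 0 for PreL against SPG in SKO, 1 for LZ against PreL in SKO, and 1 and 4 for the interactions. No block could be fitted for LZ against PreL in WT. With 6 libraries or fewer per comparison, and SKO LZ the shallowest group, values at 0 to 3 reads set no more than a limit.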
